A study of Mus musculus with 8 samples.

Results

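The Ccdc genes are mouse genes named for a coiled-coil domain, a stretch of protein in which helices wind around each other. The members were the transcript clusters (the array's units of probes for 1 transcript) whose platform annotation gave a single gene symbol starting with Ccdc and a digit, with 1 symbol left out. They made up 162 of 35512 clusters and 129 of the 19938 genes that a single symbol named, and each gene was read on its cluster with the highest mean. All 129 matched a protein-coding gene of assembly GRCm38.p6, and they lay on 20 chromosomes, so they share a naming rule and not a locus. A further 4 clusters that listed a Ccdc gene beside another gene were left out.

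Coiled coils are a structural feature and not a pathway. Many proteins named this way build or hold together microtubule structures: the axoneme that beats in the sperm tail, the centrioles from which it grows, and the coupling of head and tail. Others work in the Golgi, at endosomes, in mitochondria, in the nucleus or outside the cell. Round spermatids are early haploid germ cells in which transcripts for the tail, the acrosome (the enzyme cap over the sperm head) and nuclear packing are made before transcription ends.

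The RNA came from round spermatids of adult C57BL/6 mice that differed at Miwi (Piwil1), the gene of a PIWI protein of the male germ line that acts with piRNAs from late meiosis on. In MIWI +/- spermatids a null allele stood beside the wild-type one, and MIWI -/- spermatids had null alleles alone. A knock-in allele (KI), which the labels do not describe, stood beside the wild-type allele in MIWI +/KI and beside a null allele in MIWI -/KI; the series title concerns catalysis by MIWI. There were 2 arrays per genotype, which the titles number as biological replicates, 8 in all, and no group was free of an altered allele. The labels do not say how many animals an array stands for. The p-values therefore set a difference against the spread between preparations of the same genotype, pooled over all genotypes. That spread may be partly technical.

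The deposited intensities had array medians between 66.6 and 71.8, and precision is limited by there being 2 arrays a genotype. Piwil1 itself had log2 intensities of 8.60 and 8.53 in MIWI +/-, 9.41 and 9.55 in MIWI +/KI, 7.61 and 7.24 in MIWI -/-, and 9.39 and 9.44 in MIWI -/KI. Its difference between MIWI -/- and MIWI +/- was -1.14 (SE 0.167, limma adjusted p = 0.00771), which goes with the labels. The 10 round spermatid markers had array means between 10.03 and 10.28 in every genotype, and Tssk2 was the 1 of them called between arrays without and with a wild-type allele (-0.83). The 10 elongating spermatid markers, such as the protamines, all fell without a wild-type allele, with array means of 11.61 to 12.14 with that allele and 10.21 to 10.64 without. The means of 13 Sertoli cell markers were 6.86 to 7.17 with it and 6.26 to 6.68 without, and 4 of them fell. The means of 6 Leydig cell markers were 5.85 to 6.38 with it and 6.21 to 7.16 without, with 0 called. Of the other markers measured, 1 of 13 for spermatocytes rose and 1 fell, 1 of 10 for spermatogonia rose, 1 of 12 for stromal cells rose, and 3 of 8 for blood cells fell. Beside these marker counts, 4.33% of all genes rose and 3.93% fell without a wild-type allele. The part of the marker shifts in any change below was not tested. In bulk RNA a smaller share of a cell type and less transcript per cell cannot be told apart.

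Without a wild-type Miwi allele, 14 of the 129 Ccdc genes changed (10.9%), 5 upward and 9 downward, where 8.26% of all genes did, 4.33% upward and 3.93% downward. This comparison is the mean of 2 differences, MIWI -/- minus MIWI +/- and MIWI -/KI minus MIWI +/KI, and a gene was called at a limma adjusted p under 0.05 over all clusters. The largest changes were falls, 4.35-fold for Ccdc187, 2.33-fold for Ccdc6 and 2.06-fold for Ccdc91, and the smallest called fall was 1.36-fold for Ccdc169. The called rises lay between 1.43-fold for Ccdc78 and 1.57-fold for Ccdc146. The log2 difference of the 129 genes had a median of 0.06 and ran from -2.12 to 0.81, and the median over all genes was -0.01. In 25 genes (19.4%) the arrays with and without the allele did not overlap, against 15.9% of all genes. Ccdc187, Ccdc6, Ccdc91 and Ccdc54 kept their call under all 16 alternatives run. Of the other 10, Ccdc180 lost its call in 3 of 8 leave-one-out fits and the rest in 4 to 6. The count depended on single arrays, and so did the share of all genes called. It was 4 (3.10%) without MIWI +/- replicate 1 or without either MIWI +/KI replicate, where 4.00%, 3.28% and 3.57% of all genes were called. It was 5 (3.88%, against 3.89% of all genes) without MIWI +/- replicate 2, 7 (5.43%, against 5.86%) without MIWI -/- replicate 1, and 29 (22.5%, against 16.5%) without MIWI -/KI replicate 1.

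MIWI -/- and MIWI -/KI, each against MIWI +/-, gave similar lists. In MIWI -/- 12 Ccdc genes changed (9.30%, against 6.13% of all genes), 5 upward and 7 downward (2.6% and 3.53% of all genes). In MIWI -/KI 10 changed (7.75%, against 6.23% of all genes), 3 upward and 7 downward (3.11% and 3.12% of all genes). The 7 falls were the same genes in both: Ccdc187, Ccdc6, Ccdc91, Ccdc70, Ccdc159, Ccdc54 and Ccdc169. Ccdc42 and Ccdc180 rose in both. The 2 comparisons share the MIWI +/- arrays. Compared directly, MIWI -/KI against MIWI -/- gave 0 called Ccdc genes and 0 of all genes (0%) by limma, with 6 Ccdc genes at an unadjusted p under 0.05 (4.65%, against 4.55% of all genes). The smallest p values there were those of Ccdc91 (0.43), Ccdc117 (0.44) and Ccdc60 (-0.32), with log2 differences in brackets and an adjusted p of 0.998 for each.

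The counts in these comparisons moved with single arrays too. In MIWI -/- against MIWI +/- the count was 4 without MIWI +/- replicate 1 and 3 without replicate 2 (2.07% and 1.88% of all genes called), and 5 without MIWI -/- replicate 2 (2.92%). It was 8 without MIWI -/- replicate 1 (4.77% of all genes) or MIWI +/KI replicate 1 or 2 (3.29% and 3.28%), and 22 (17.1%) without either MIWI -/KI replicate, where 10.2% of all genes were called. In MIWI -/KI against MIWI +/- it was 3 when MIWI +/- replicate 1 was dropped and 2 when replicate 2 was (1.81% and 1.73% of all genes), and 6 and 5 when MIWI +/KI replicate 1 or 2 was (3.42% and 3.41%). It was 24 (18.6%, against 13.9% of all genes) when MIWI -/KI replicate 1 was.

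Array signal and the chance of a call went together. The 59 Ccdc genes with a mean log2 intensity of at least 8 held 11 of the calls (18.6%, against 17.3% of all genes at that level), and the 70 dimmer ones held 3 (4.29%, against 5.16%). Within each level the Ccdc genes were called about as often as other genes. Probes differ in how brightly they bind, so these levels order the measurements and not the transcripts.

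**Figure D1:**
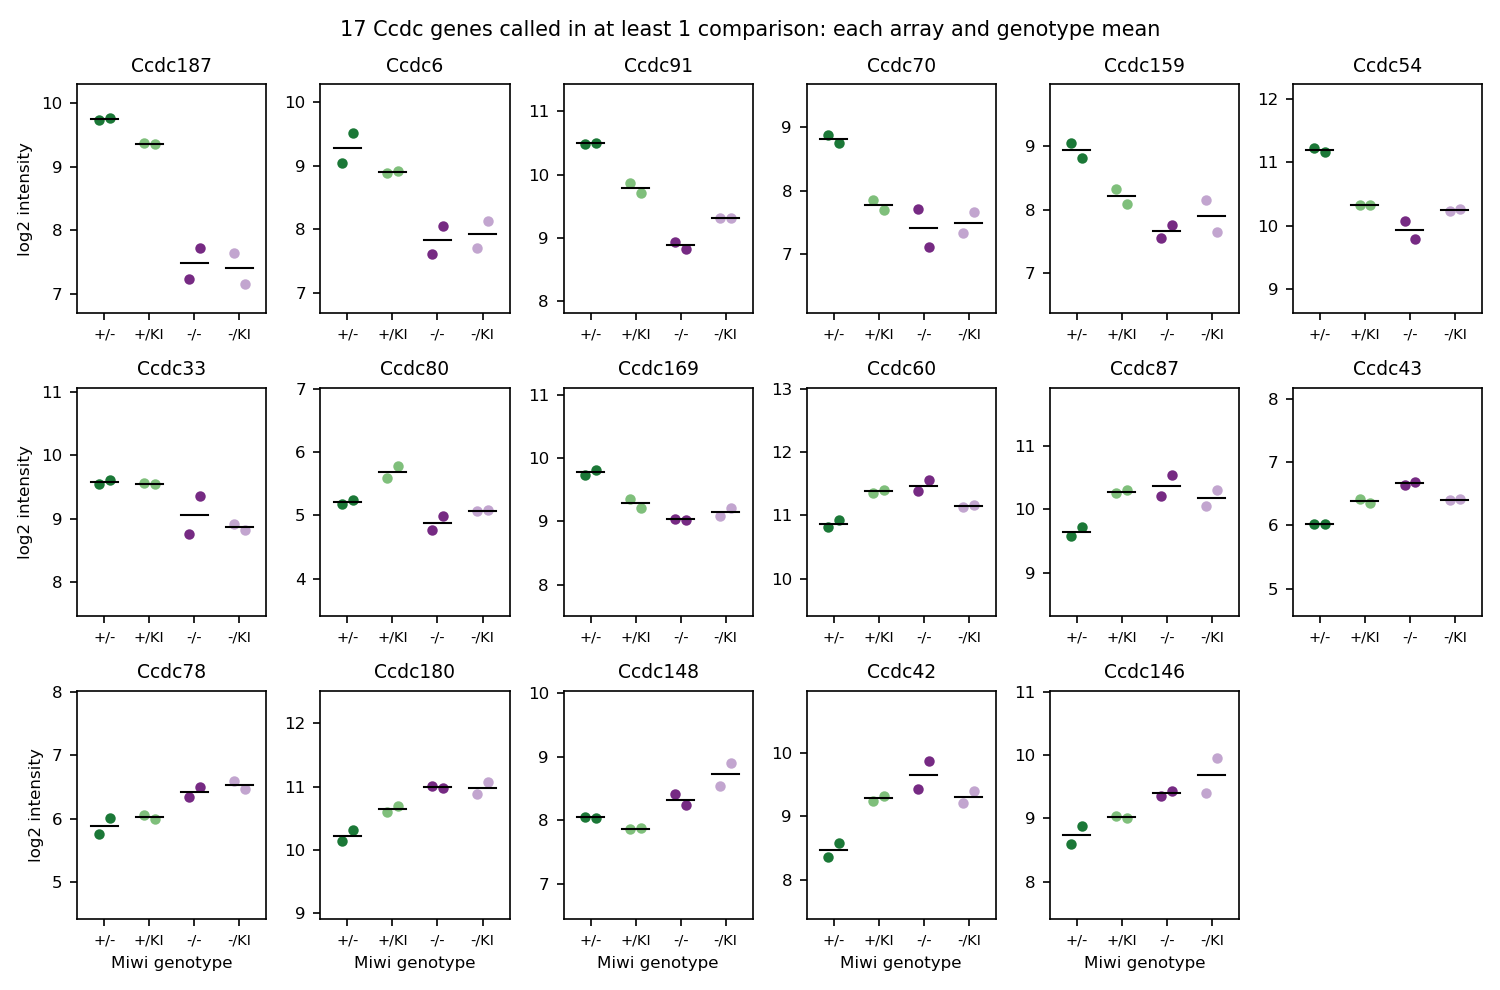
Log2 intensity (y axis, the same span in every panel) of the 17 Ccdc genes called in at least 1 comparison, by Miwi genotype (x axis); points are arrays, 2 per genotype, and bars are their means. Ccdc187 stood at 9.36 to 9.77 with a wild-type allele and at 7.16 to 7.73 without, and in Ccdc91 the 4 genotypes do not overlap.

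Ccdc187 changed most. Its log2 intensity was 9.74 and 9.77 in MIWI +/- and 9.38 and 9.36 in MIWI +/KI, and 7.23 and 7.73 in MIWI -/- and 7.64 and 7.16 in MIWI -/KI. All 4 arrays with a wild-type allele were above all 4 without, by a gap wider than the spread within any genotype. The difference without against with the allele was -2.12 (SE 0.155, limma adjusted p = 0.000209). It was -2.28 (SE 0.220, adjusted p = 0.00108) in MIWI -/- and -2.35 (SE 0.220, adjusted p = 0.00103) in MIWI -/KI, each against MIWI +/-. Both mutants share those control arrays. Against its own MIWI +/KI arrays, MIWI -/KI was lower by -1.97 (SE 0.220, adjusted p = 0.00679), a call that ended without either MIWI +/KI replicate. Ccdc187 belonged to no role list, and its role is not stated here.

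Of 21 sperm formation and testis-enriched genes, the longest role list, 4 fell and 1 rose without a wild-type allele (3.93% and 4.33% of all genes), with a median difference of 0.15. At an unadjusted limma p under 0.05 there were 13, where 20.6% of all genes were. A mean log2 intensity of at least 8 was found in 16 of the 21, and at that level 17.3% of all genes were called. In MIWI -/- against MIWI +/-, 3 of the 21 rose (Ccdc42, Ccdc87 and Ccdc60) and 3 fell (Ccdc70, Ccdc159 and Ccdc54), where 2.6% of all genes rose and 3.53% fell.

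Ccdc54 had log2 intensities of 11.22 and 11.17 in MIWI +/-, 10.33 and 10.33 in MIWI +/KI, 10.08 and 9.79 in MIWI -/-, and 10.24 and 10.27 in MIWI -/KI. The MIWI +/- arrays stood alone at the top, and the MIWI +/KI arrays were close to the mutants. Its difference was -1.26 (SE 0.132, limma adjusted p = 0.00145) in MIWI -/- against MIWI +/-, and -0.07 (SE 0.132, adjusted p = 0.827) in MIWI -/KI against MIWI +/KI. The test of the difference between those 2 values gave 1.19 (SE 0.186, adjusted p = 0.0927), the smallest adjusted p among the Ccdc genes in that test; it passed the threshold without MIWI -/- replicate 1. Its difference between MIWI +/KI and MIWI +/- was -0.87 (SE 0.132, adjusted p = 0.0852).

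Ccdc70 stood at 8.89 and 8.76 in MIWI +/-, 7.85 and 7.70 in MIWI +/KI, 7.71 and 7.11 in MIWI -/-, and 7.33 and 7.66 in MIWI -/KI. Its MIWI +/KI arrays overlapped the mutants. Against MIWI +/- it fell 2.66-fold in MIWI -/- (log2 difference -1.41, SE 0.226, limma adjusted p = 0.0116) and 2.51-fold in MIWI -/KI (-1.33, adjusted p = 0.0149). Ccdc159 stood at 9.06 and 8.82 in MIWI +/-, 8.33 and 8.09 in MIWI +/KI, 7.56 and 7.76 in MIWI -/-, and 8.15 and 7.64 in MIWI -/KI. It too was highest in MIWI +/-, and its MIWI -/KI arrays reached into the MIWI +/KI range. It fell 2.43-fold in MIWI -/- (adjusted p = 0.0134) and 2.06-fold in MIWI -/KI (adjusted p = 0.0308) against MIWI +/-.

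Ccdc33 read 9.56 and 9.62 in MIWI +/-, 9.56 and 9.55 in MIWI +/KI, 8.75 and 9.36 in MIWI -/-, and 8.92 and 8.83 in MIWI -/KI. The 4 arrays with a wild-type allele lay close together and the MIWI -/- replicates apart. It was called in the mean of both differences alone (-0.61, SE 0.141, limma adjusted p = 0.0436), and the call was lost in 6 of 8 leave-one-out fits.

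Ccdc42, needed for the tail and its coupling to the head and for male fertility, was the largest riser of MIWI -/- among the called genes. Its log2 intensities were 8.36 and 8.58 in MIWI +/-, 9.25 and 9.32 in MIWI +/KI, 9.43 and 9.88 in MIWI -/-, and 9.21 and 9.40 in MIWI -/KI. The MIWI +/- arrays were the lowest 2, and MIWI +/KI and MIWI -/KI overlapped. It rose 2.26-fold in MIWI -/- (log2 difference 1.18, SE 0.185, limma adjusted p = 0.0108) and 1.78-fold in MIWI -/KI (0.83, adjusted p = 0.0450) against MIWI +/-. MIWI -/KI against MIWI +/KI gave 0.02 (SE 0.185, adjusted p = 0.970), and the test of the difference between the differences gave -1.16 (SE 0.262, adjusted p = 0.148).

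Ccdc87, linked to acrosome formation and fertilisation, also had its lowest arrays in MIWI +/-. It stood at 9.58 and 9.72 in MIWI +/-, 10.26 and 10.31 in MIWI +/KI, 10.21 and 10.54 in MIWI -/-, and 10.05 and 10.30 in MIWI -/KI. The other 3 genotypes overlapped each other. Its rise in MIWI -/- was 0.73 (SE 0.158, limma adjusted p = 0.0419), and in MIWI -/KI against MIWI +/- the value was 0.53 (adjusted p = 0.124). Ccdc60 stood at 10.81 and 10.92 in MIWI +/-, 11.35 and 11.41 in MIWI +/KI, 11.38 and 11.55 in MIWI -/-, and 11.13 and 11.17 in MIWI -/KI. MIWI +/- was again lowest, with MIWI -/KI between it and the other genotypes. Ccdc60 rose by 0.60 in MIWI -/- (SE 0.110, adjusted p = 0.0211), and its value in MIWI -/KI against MIWI +/- was 0.28 (adjusted p = 0.253).

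Other members of the list had no called difference without against with a wild-type allele. Ccdc136, a protein of the acrosome, gave -0.21 (limma adjusted p = 0.365), Ccdc38, a protein of the flagellum, 0.15 (adjusted p = 0.568), and Ccdc110 0.43 (adjusted p = 0.0607).

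Of 15 genes of the axoneme and motile cilium, 13 had a mean log2 intensity of at least 8; 2 rose without a wild-type allele (Ccdc146 and Ccdc78), where 4.33% of all genes did, and 0 fell. The median difference was 0.18, beside -0.01 over all genes. In MIWI -/- against MIWI +/- 0 of the 15 were called, and in MIWI -/KI 1 rose.

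Ccdc146, a microtubule-associated protein of centrioles and flagella needed for male fertility, had log2 intensities of 8.60 and 8.88 in MIWI +/-, 9.04 and 9.01 in MIWI +/KI, 9.36 and 9.43 in MIWI -/-, and 9.41 and 9.96 in MIWI -/KI. All arrays without a wild-type allele were above all arrays with one, and MIWI -/KI replicate 2 was the highest. The difference was 0.65 (SE 0.142, limma adjusted p = 0.0342), and 0.94 (SE 0.201, adjusted p = 0.0384) in MIWI -/KI against MIWI +/-. Ccdc78, which takes part in making many centrioles in multiciliated cells, was dim. It stood at 5.76 and 6.01 in MIWI +/-, 6.05 and 6.00 in MIWI +/KI, 6.34 and 6.49 in MIWI -/-, and 6.59 and 6.47 in MIWI -/KI, without overlap between arrays with and without a wild-type allele. Its difference was 0.52 (SE 0.111, adjusted p = 0.0317).

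The structural genes of the axoneme gave small values without a call. Ccdc39 and Ccdc40, which form the ruler that sets the repeat of the axoneme, gave 0.10 (SE 0.139, limma adjusted p = 0.793) and 0.21 (SE 0.118, adjusted p = 0.447). Ccdc65, of the nexin-dynein regulatory complex, gave 0.19 (SE 0.0843, adjusted p = 0.286). The outer dynein arm docking genes Ccdc114 and Ccdc151 gave -0.26 (SE 0.130) and 0.05 (SE 0.114). Ccdc181 gave 0.02 (SE 0.0841), Ccdc113 0.31 (SE 0.140), and Ccdc189, the lowest of the list, -0.37 (SE 0.122, adjusted p = 0.143). Errors of this size leave shifts of that order undetermined.

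Partner genes of the same structures, from lists with fixed members, can be set beside them. Of 9 genes measured from the dynein regulatory complex and 11 from outer arm docking and dynein assembly, 0 were called by limma in either direction. At an unadjusted p under 0.05 there were 4 and 5, where 20.6% of all genes were, and the medians were 0.18 and 0.21. Of 14 genes for head-tail coupling and the manchette (the microtubule skirt that shapes the sperm head), 4 fell and 1 rose: Pmfbp1 fell by 0.89 (limma adjusted p = 0.00171), Odf1 by 0.66 (adjusted p = 0.00230), Hook1 by 0.63 (adjusted p = 0.00228) and Spata6 by 0.40 (adjusted p = 0.0372), while Ift88, an intraflagellar transport gene, rose by 0.58 (adjusted p = 0.00768). Over all genes 3.93% fell and 4.33% rose, and 17.3% of genes with a mean log2 intensity of at least 8 were called. Odf1 is also among the elongating spermatid markers above.

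**Figure D2:**
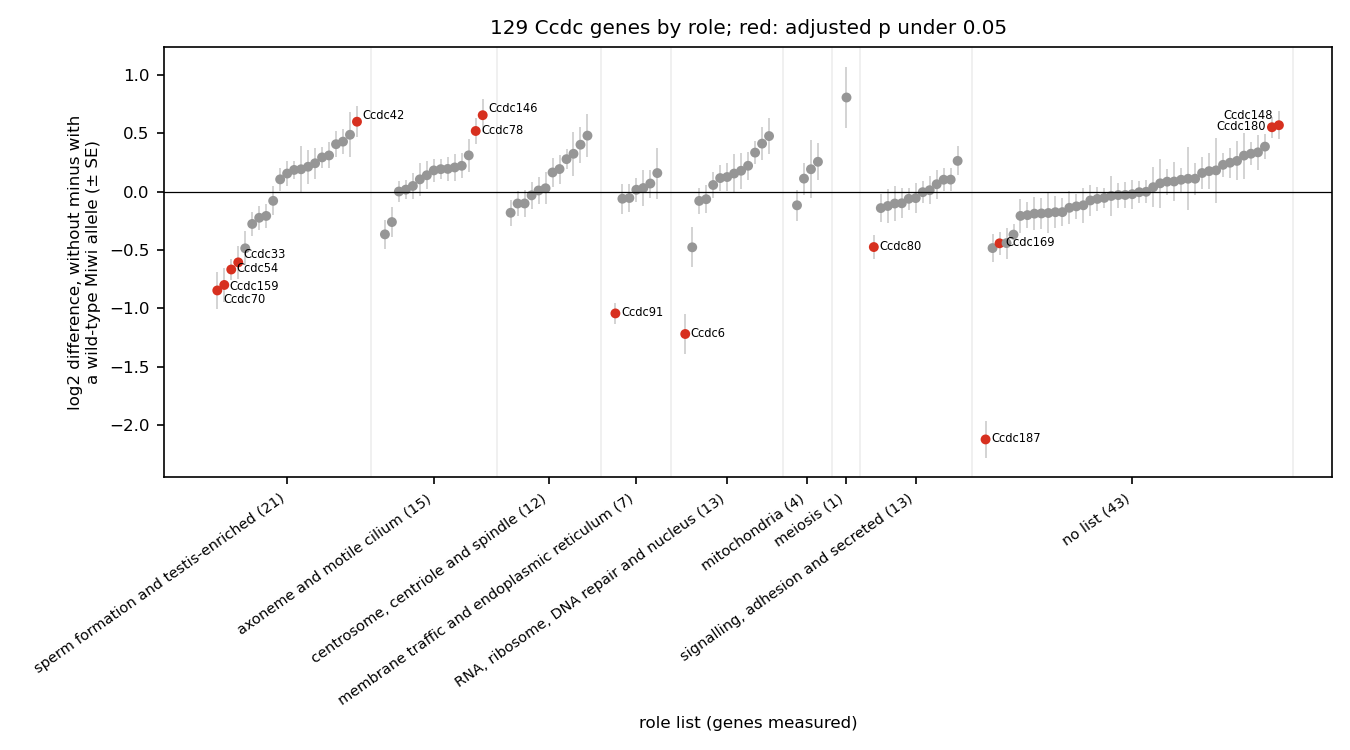
Log2 difference without minus with a wild-type Miwi allele (y axis, with its standard error) of the 129 Ccdc genes, sorted by value within each role list (x axis); red points passed a limma adjusted p under 0.05. Ccdc187 at -2.12, Ccdc6 at -1.22 and Ccdc91 at -1.04 lay below all others, and the centrosome, mitochondria and meiosis lists held no red point.

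Genes of the centrosome, centriole and spindle had 0 calls among 12 by limma, with a median of 0.10. At an unadjusted p under 0.05 there were 3, where 20.6% of all genes were. The highest value belonged to Ccdc66, a centriolar satellite protein, at 0.48 (SE 0.181, limma adjusted p = 0.204). Its log2 intensities were 7.46 and 7.83 in MIWI +/-, 7.58 and 7.76 in MIWI +/KI, 8.01 and 7.86 in MIWI -/-, and 7.97 and 8.71 in MIWI -/KI, where a single array, MIWI -/KI replicate 2, stood well above the rest. Ccdc81, among the brightest Ccdc clusters, gave 0.28 (adjusted p = 0.109). Of 10 partner genes of centriolar satellites, Ofd1 rose by 0.99 (adjusted p = 0.0264), Cep290 by 0.81 (adjusted p = 0.0314) and Ssx2ip fell by 0.37 (adjusted p = 0.0279). Among all genes 4.33% rose and 3.93% fell.

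Membrane traffic genes had 1 fall among 7, where 3.93% of all genes fell, and this fall was among the firmest of the set. Ccdc91, a protein of the trans-Golgi network that binds GGA adaptors, had log2 intensities of 10.49 and 10.50 in MIWI +/-, 9.88 and 9.72 in MIWI +/KI, 8.95 and 8.83 in MIWI -/-, and 9.31 and 9.32 in MIWI -/KI. The 4 genotypes did not overlap, in the order MIWI +/-, MIWI +/KI, MIWI -/KI, MIWI -/-. The difference without against with the allele was -1.04 (SE 0.0924, limma adjusted p = 0.000521). It fell 3.04-fold in MIWI -/- (-1.60, SE 0.131, adjusted p = 0.000481) and 2.26-fold in MIWI -/KI (-1.18, SE 0.131, adjusted p = 0.00233) against MIWI +/-. MIWI -/KI against MIWI +/KI gave -0.48 (SE 0.131, adjusted p = 0.121), and the test of the difference between the differences gave 1.12 (SE 0.185, adjusted p = 0.0987).

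The other traffic genes gave values near 0. Ccdc22 and Ccdc93, subunits of the CCC complex that recycles membrane proteins from endosomes, gave 0.07 (SE 0.120) and -0.05 (SE 0.119), and Ccdc115, which helps assemble the proton pump of endolysosomes, -0.06 (SE 0.129). Of 13 partner genes of the CCC complex and its COMMD subunits, 2 rose, Vps35l by 0.54 (limma adjusted p = 0.0454) and Commd10 by 0.50 (adjusted p = 0.0439), and 0 fell. The shares of all genes were 4.33% for rises and 3.93% for falls.

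In the list for RNA, the ribosome, DNA repair and the nucleus, 1 of 13 fell and 0 rose. Over all genes 3.93% fell and 4.33% rose. Ccdc6, a DNA damage response protein known as a fusion partner of RET in thyroid tumours, stood at 9.04 and 9.52 in MIWI +/-, 8.88 and 8.92 in MIWI +/KI, 7.61 and 8.05 in MIWI -/-, and 7.71 and 8.13 in MIWI -/KI. Arrays with and without a wild-type allele did not overlap. The difference was -1.22 (SE 0.168, limma adjusted p = 0.00435), with -1.45 (adjusted p = 0.0129) in MIWI -/- and -1.37 (adjusted p = 0.0165) in MIWI -/KI against MIWI +/-, and -0.98 (adjusted p = 0.0896) in MIWI -/KI against MIWI +/KI. Next in size were Ccdc124 at -0.48 (adjusted p = 0.174), Ccdc174 at 0.48 (adjusted p = 0.126) and Ccdc59 at 0.41 (adjusted p = 0.156).

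Among 13 genes for signalling, adhesion and secreted proteins, Ccdc80, a secreted extracellular matrix protein, fell, where 3.93% of all genes did. It stood at 5.18 and 5.25 in MIWI +/-, 5.60 and 5.79 in MIWI +/KI, 4.77 and 4.99 in MIWI -/-, and 5.07 and 5.08 in MIWI -/KI. These values were dim, and MIWI +/KI was highest. The difference was -0.47 (SE 0.101, limma adjusted p = 0.0314), and in neither mutant against MIWI +/- was it called. Ccdc88a (girdin, an actin-binding signalling protein) gave 0.26 (adjusted p = 0.329).

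None of the 4 mitochondrial genes was called by limma in the mean of both differences. At an unadjusted p under 0.05 there were 0, where 20.6% of all genes were. Ccdc58 gave 0.26 (limma adjusted p = 0.498), Ccdc90b 0.19 (adjusted p = 0.786) and Ccdc51, a subunit of a mitochondrial potassium channel, -0.12 (adjusted p = 0.748). Of 5 genes of the mitochondrial calcium uniporter, the pore gene Mcu, which once carried a Ccdc symbol and so fell outside the rule, fell by 0.65 (SE 0.128, adjusted p = 0.0221). Its log2 intensities were 8.02 and 8.31 in MIWI +/-, 7.18 and 7.14 in MIWI +/KI, 6.77 and 6.80 in MIWI -/-, and 7.06 and 7.41 in MIWI -/KI, so that MIWI +/KI and MIWI -/KI overlapped. Ccdc73, the 1 gene measured from the meiosis list, had the highest difference of all members, 0.81 (SE 0.262, adjusted p = 0.132). It was not called: its MIWI -/KI arrays read 7.04 and 8.26, and the 2 MIWI -/- arrays 7.74 and 7.37, against 6.45 to 7.01 with a wild-type allele.

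Of the 43 genes in no list, 2 rose and 2 fell, where 4.33% of all genes rose and 3.93% fell. Beside Ccdc187, Ccdc169 fell: it stood at 9.74 and 9.82 in MIWI +/-, 9.35 and 9.22 in MIWI +/KI, 9.04 and 9.02 in MIWI -/-, and 9.08 and 9.21 in MIWI -/KI. Its arrays did not overlap between groups, though MIWI +/KI lay just above the mutants, and the difference was -0.44 (SE 0.0957, limma adjusted p = 0.0336). Ccdc148 rose by 0.57 (SE 0.119, adjusted p = 0.0289), from 8.05 and 8.03 in MIWI +/- and 7.86 and 7.88 in MIWI +/KI to 8.41 and 8.25 in MIWI -/- and 8.55 and 8.90 in MIWI -/KI. Its difference of 0.85 in MIWI -/KI against MIWI +/KI missed the threshold at an adjusted p of 0.0502. Ccdc43 was called in MIWI -/- against MIWI +/- alone (0.63, SE 0.136, adjusted p = 0.0397), with 6.03 and 6.03 in MIWI +/-, 6.42 and 6.36 in MIWI +/KI, 6.64 and 6.68 in MIWI -/-, and 6.39 and 6.42 in MIWI -/KI.

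Ccdc180 was the member with the most clusters. It had 27 single-symbol clusters, and the 26 not used above are a second look at the same RNA on the same arrays, not further replicates. The brightest cluster had log2 intensities of 10.14 and 10.32 in MIWI +/-, 10.59 and 10.70 in MIWI +/KI, 11.01 and 10.98 in MIWI -/-, and 10.88 and 11.08 in MIWI -/KI. MIWI +/- was lowest, MIWI +/KI intermediate, and both mutants highest and overlapping each other. The difference without against with a wild-type allele was 0.55 (SE 0.0894, limma adjusted p = 0.00959), with 0.77 (adjusted p = 0.0133) in MIWI -/- and 0.75 (adjusted p = 0.0140) in MIWI -/KI against MIWI +/-. All 27 clusters had a positive difference, from 0.42 to 0.81 with a median of 0.59, and 21 of them were called. In MIWI -/KI against MIWI +/KI all 27 were positive as well and 2 were called, and in MIWI +/KI against MIWI +/- 23 were positive and 0 called. The clusters negative there, from -0.14 to -0.05, carry neighbouring cluster numbers. They include both clusters called in MIWI -/KI against MIWI +/KI, at 1.01 and 0.80. In MIWI -/- against MIWI +/- they gave 0.25 to 0.54, so the order of the brightest cluster did not hold in them.

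**Figure D3:**
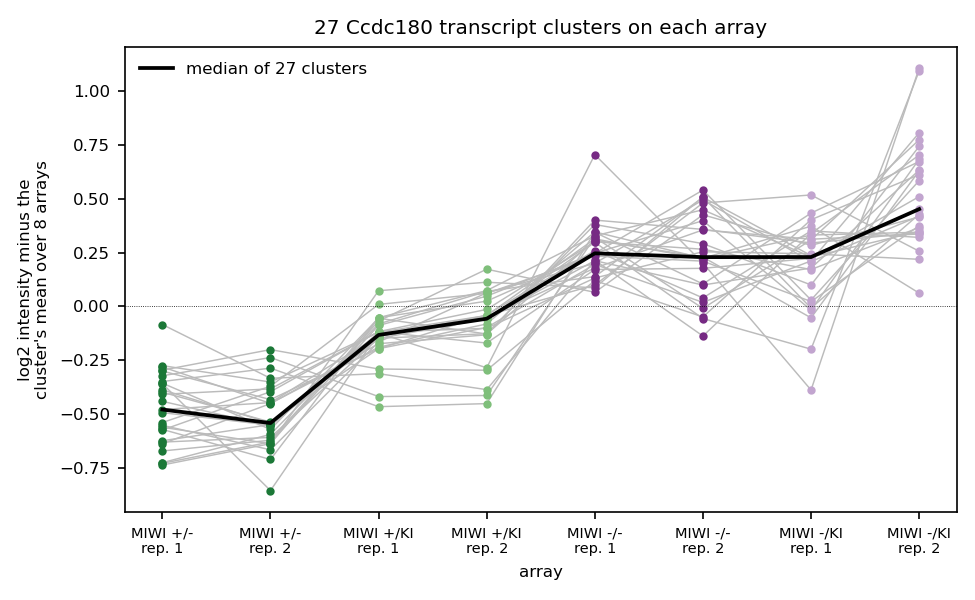
Log2 intensity of the 27 Ccdc180 clusters on each of the 8 arrays (x axis), each minus its own mean over the arrays (y axis); grey lines join a cluster's values and the black line is their median. The median is lowest in MIWI +/- and highest on the arrays without a wild-type allele; single clusters depart from that order, and 23 of the 27 have a higher mean in MIWI +/KI than in MIWI +/-.

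Promoter sequence is shown for the genes in which a motif stood close to the start, and for the gene that fell most. RefSeq promoters of build GRCm38.p6 were found for 104 of the 129 genes, 15 of the 17 called in any comparison among them, and the 250 bases before each start were searched on both strands. The letters were GTTGCC, core letters of the X-box that RFX factors of ciliated cells bind, TGACGTCA, the cAMP response element that CREM, a master regulator of spermatid transcription, binds, and TGACG, the shorter form of it, which every full site contains. A gene with several starts counted once if any window matched. Capitals mark the X-box letters (GGCAAC is the same motif on the other strand), and Ccdc187 had none of the 3 motifs. The windows are Ccdc180, chr4:45890053-45890302, plus strand; Ccdc60, chr5:116288986-116289235, minus strand; Ccdc78, chr17:25786330-25786579, plus strand; and Ccdc187, chr2:26294558-26294807, minus strand. All run 5′ to 3′ and end at the base before the start.
Ccdc180: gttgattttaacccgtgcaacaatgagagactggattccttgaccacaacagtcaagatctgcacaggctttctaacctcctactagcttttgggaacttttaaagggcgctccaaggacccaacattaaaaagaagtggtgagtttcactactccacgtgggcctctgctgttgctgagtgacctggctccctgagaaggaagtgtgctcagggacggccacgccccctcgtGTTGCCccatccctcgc
Ccdc60: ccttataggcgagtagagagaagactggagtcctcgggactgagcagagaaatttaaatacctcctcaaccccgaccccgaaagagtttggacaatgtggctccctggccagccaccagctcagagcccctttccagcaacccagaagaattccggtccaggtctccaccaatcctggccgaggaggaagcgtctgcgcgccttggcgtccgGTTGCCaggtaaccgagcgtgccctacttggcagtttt
Ccdc78: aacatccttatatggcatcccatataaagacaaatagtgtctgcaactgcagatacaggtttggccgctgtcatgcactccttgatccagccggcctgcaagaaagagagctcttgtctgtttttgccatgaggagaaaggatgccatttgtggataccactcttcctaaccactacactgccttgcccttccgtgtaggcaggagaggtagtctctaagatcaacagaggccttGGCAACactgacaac
Ccdc187: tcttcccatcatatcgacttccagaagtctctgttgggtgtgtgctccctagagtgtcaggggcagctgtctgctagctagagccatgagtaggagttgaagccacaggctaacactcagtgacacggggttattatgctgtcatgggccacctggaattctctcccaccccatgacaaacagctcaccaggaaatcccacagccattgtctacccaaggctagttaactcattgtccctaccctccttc

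GTTGCC stood in 20 of the 104 promoters (19.2%), against 11.8% of 27025 genes with a promoter. Among the 15 called genes it stood in 5 (33.3%): Ccdc180, beginning 17 bases before the start, Ccdc60 at 38, Ccdc78 at 15, Ccdc91 at 100 and Ccdc43 at 222. It was found in 4 of 7 genes whose difference without against with a wild-type allele was positive and in 1 of 8 whose difference was negative. TGACGTCA stood in 2 of 104 (1.92%, against 1.77% of all) and in 0 of the 15. TGACG stood in 28 of 104 (26.9%, against 19.8%) and in 1 of the 15, Ccdc148. These are matches of letters in a window and were not tested.

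MIWI +/KI against MIWI +/- compares both genotypes that have a wild-type allele. In it 0 Ccdc genes were called by limma, where 0.0953% of all genes were, and 20 were at an unadjusted p under 0.05 (15.5%, against 11.7% of all genes). The smallest p values were those of Ccdc54 (-0.87, adjusted p = 0.0852), Ccdc91 (-0.70, adjusted p = 0.120) and Ccdc70 (-1.05, adjusted p = 0.152). The MIWI +/KI mean lay between that of MIWI +/- and those of both mutants in 48 of the 129 genes (37.2%), against 27.7% of all genes. Among the 17 genes called in at least 1 comparison it did so in 13, a count that the choice of genes by these same arrays favours. The exceptions were Ccdc148 and Ccdc80, where MIWI +/KI lay on the far side of MIWI +/-, and Ccdc60 and Ccdc87, where it lay above MIWI -/KI. The elongating spermatid markers also had an intermediate mean in MIWI +/KI, 11.61 and 11.66, against 12.02 and 12.14 in MIWI +/-. When only the genotypes compared entered the fit, 15 Ccdc genes passed between MIWI +/KI and MIWI +/- (11.6%, against 7.39% of all genes in that fit). Of these, 6 were higher and 9 lower, where 3.7% and 3.69% of all genes were.

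MIWI -/KI against MIWI +/KI, in which both groups carry the knock-in allele, gave 1 call, the fall of Ccdc187 (0.775%, against 2.43% of all genes, 1.14% upward and 1.29% downward). At an unadjusted p under 0.05 it had 22 Ccdc genes, 12 higher and 10 lower (17.1%, against 17.9% of all genes). The count was 0 without MIWI +/KI replicate 1 or 2 (0.211% and 0.226% of all genes) and 3 without MIWI -/- replicate 1 or 2 (2.88% and 2.85%). It was 21, with 18 higher and 3 lower (16.3%, against 13.4% of all genes), without MIWI -/KI replicate 1. This comparison and that of MIWI -/- with MIWI +/- share no array. Across the 129 genes their differences correlated with r = 0.48, and across all genes with r = 0.49, where genes are not independent replicates. Both differences had the same sign in 88 genes (68.2%), against 56.9% of all genes. The test of the difference between them called 0 Ccdc genes and 0 of all genes (0%) by limma, with 21 Ccdc genes at an unadjusted p under 0.05 (16.3%, against 13% of all genes).

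**Figure D4:**
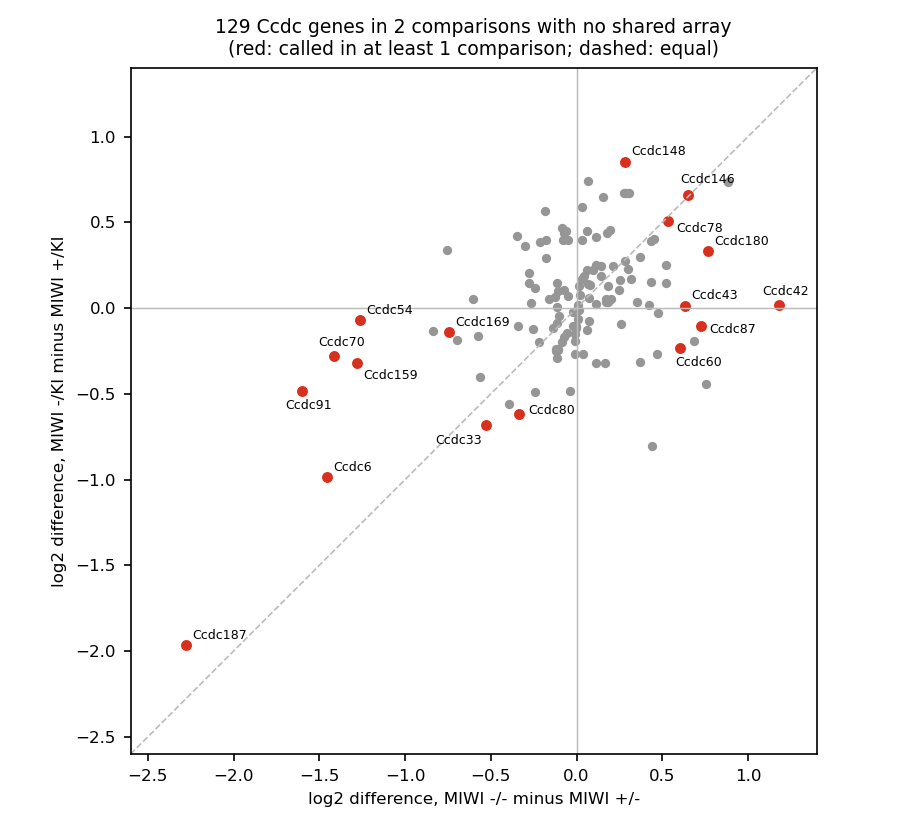
Log2 difference of MIWI -/- minus MIWI +/- (x axis) against that of MIWI -/KI minus MIWI +/KI (y axis) for 129 Ccdc genes, with the 17 called in at least 1 comparison in red. Ccdc187 lies near the dashed line of equal differences at -2.28 and -1.97, while Ccdc54 and Ccdc42 lie at -1.26 and 1.18 on the x axis and at -0.07 and 0.02 on the y axis.

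The spread between replicates differed by genotype. The median gap between the 2 arrays of a genotype over the 129 genes was 0.12 (log2) in MIWI +/-, 0.08 in MIWI +/KI, 0.15 in MIWI -/- and 0.33 in MIWI -/KI, and over all genes 0.12, 0.09, 0.18 and 0.28. A gap of more than 0.5 was found for 35 Ccdc genes in MIWI -/KI, 26 of them higher in replicate 2, for 8 in MIWI -/-, 1 in MIWI +/- and 0 in MIWI +/KI. Such gaps were not counted over all genes, so these counts do not set the Ccdc genes apart. The widest gaps were those of Ccdc144b (1.32), Ccdc73 (1.23) and Ccdc152 (1.20) in MIWI -/KI, and of Ccdc90b (1.11) in MIWI -/-.

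Genes high in MIWI -/KI replicate 2 tended to be high in MIWI -/- replicate 1. The 2 gaps correlated with r = 0.49 over the 129 genes, which share arrays and normalization, and Ccdc152, Ccdc34, Ccdc47 and Ccdc90b were over 0.5 in both. Over all clusters without a missing value, the replicate 1 deviations of MIWI -/- and MIWI -/KI from their genotype means correlated with r = -0.26. That is the same direction, since the MIWI -/KI gap here is replicate 2 minus 1. The pattern was thus not confined to Ccdc genes. Ccdc90b, a mitochondrial protein, stood at 6.19 and 5.99 in MIWI +/-, 5.60 and 5.60 in MIWI +/KI, 6.46 and 5.35 in MIWI -/-, and 5.85 and 6.49 in MIWI -/KI. Ccdc47, a protein of the endoplasmic reticulum, stood at 7.36 and 7.31 in MIWI +/-, 7.33 and 7.45 in MIWI +/KI, 7.62 and 6.89 in MIWI -/-, and 7.39 and 8.19 in MIWI -/KI. In both genes the MIWI -/- replicates lay on either side of the arrays with a wild-type allele, and MIWI -/KI replicate 2 lay above them. The mean of the 13 spermatocyte markers was also higher on those arrays, at 9.12 against 8.75 in MIWI -/- and 9.27 against 8.92 in MIWI -/KI, and 8.74 to 8.94 on the arrays with a wild-type allele. Its part in these gaps was not tested.

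**Figure D5:**
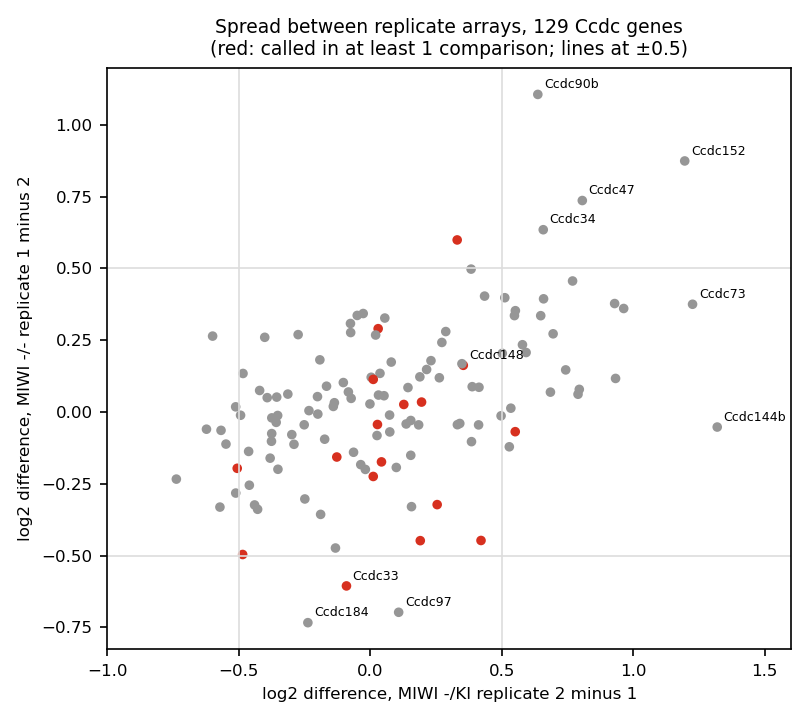
Log2 difference between replicate arrays of MIWI -/KI (replicate 2 minus 1, x axis) and of MIWI -/- (replicate 1 minus 2, y axis) for 129 Ccdc genes, with genes called in at least 1 comparison in red and lines at ±0.5. Ccdc90b, Ccdc152, Ccdc47 and Ccdc34 lie beyond 0.5 on both axes.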

How the data were processed

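Total RNA from purified round spermatids, prepared by collagenase digestion and an albumin gradient per the labels' protocols, was hybridised to Affymetrix arrays. The deposited table holds 1 linear intensity per transcript cluster and array, made by the authors with RMA, of unstated version, per the submitters' processing notes. The log2 of each deposited intensity was taken here. In 8 cells of the table, 0 of them in a Ccdc cluster, a whole number more than 100 times the median of the other arrays stood for a lost decimal separator and was set missing. Clusters were named from the platform annotation.

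All comparisons came from 1 model in limma 3.58.1 (R 4.3.3) over 35512 clusters and 8 arrays, with 1 mean per genotype, variances moderated along an intensity trend and two-sided tests; 4 degrees of freedom were residual and 3.98 prior. Benjamini-Hochberg adjustment ran over all clusters, with a threshold of 0.05. SE is the moderated standard error. The script was tested on simulated data. Array data give no counts, and probe cross-hybridisation between relatives was not examined.

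The members and lists were chosen with earlier results of these data known, so counts within a list describe it and were not tested. Genes named were those called without overlap between groups, the brightest 8, up to 4 of each role list with the largest difference, and the smallest 3 p values where 0 were called. A few more (Ccdc39, Ccdc40, Ccdc114, Ccdc151, Ccdc93, Ccdc110, Ccdc144b and Ccdc152) were chosen after their values were seen, for their known role or a value near a bound.

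Alternatives were a filter at a mean log2 of 6, a further quantile normalization, log2 of the value plus 16, division of the 8 cells by 1000, the mean of a gene's clusters, array weights, no intensity trend, the genotypes compared alone, the replicate number as a block, and each array left out.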

Additional observations from a re-analysis of the deposited data

How the results depend on the processing

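No single-gene difference changed sign: of 614 values of called genes under alternatives, 473 kept their call and 141 lost it. Counts of called Ccdc genes moved by more than 1.5 times in these settings. Averaging a gene's clusters left fewer features to test (19938 genes and not 35512 clusters). The counts were then 20 for MIWI -/- and 17 for MIWI -/KI against MIWI +/- (10.3% and 9.74% of all genes). Against MIWI +/KI they were 7 for MIWI -/KI and 5 for MIWI +/- (6.94% and 1.82% of all genes). They were 23 for arrays lacking the wild-type allele (12.7%), and 4 for the difference between the differences (2.96%). With array weights they were 19, 6 and 18 for MIWI -/-, MIWI -/KI and MIWI +/KI against MIWI +/- (9.17%, 3.74% and 7.79% of all genes). With the compared genotypes alone they were 4 for MIWI -/KI and 15 for MIWI +/KI against MIWI +/- (2.44% and 7.39% of all genes). The comparisons over all genotypes do not have that setting. A filter for clusters of a mean log2 of at least 6, which leaves out Ccdc80, kept 12239 genes. The counts were then 4 for MIWI -/KI against MIWI +/KI (7.08% of those genes) and 1 for MIWI +/KI against MIWI +/- (0.637%). The difference between the differences had 2 (0.899%). Without the intensity trend MIWI -/KI against MIWI +/KI had 2 (2.51% of all genes). The cause of the shifts under any of these settings was not tested. With a further quantile normalization MIWI -/- against MIWI +/- had 4 higher and 9 lower calls (2.07% and 3.63% of all genes). Without it they were 5 and 7 (2.6% and 3.53%).

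With 1 array left out, where the lone array is assumed to vary like the rest, the counts ran from 3 to 22 for MIWI -/- and 2 to 24 for MIWI -/KI against MIWI +/-, 0 to 21 between MIWI -/KI and MIWI +/KI, 0 to 0 between MIWI +/KI and MIWI +/- and between both mutants, 4 to 29 for lack of the wild-type allele, and 0 to 2 for the difference between the differences (2 without MIWI -/- replicate 1). Same-numbered deviations from the genotype mean correlated from -0.26 to 0.30 over 6 pairs of genotypes, with no common sign. With 1 gap per genotype, this cannot exclude a pairing of some same-numbered arrays. With the replicate number as a block the counts were 12 for MIWI -/- and 9 for MIWI -/KI against MIWI +/- (5.85% and 5.74% of all genes). They were 2 between MIWI -/KI and MIWI +/KI (1.96%), 13 for lack of the wild-type allele (7.7%), and 0 for the others (0%).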
